A study of Sus scrofa with 24 samples.

Results

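Subcutaneous fat of pigs on a lower feed intake was compared with that of pigs on a high intake. The lower intake side took the 16 arrays titled RFIneg and RFIplR, the high intake side took the 8 arrays titled RFIpl, and together they were all 24 arrays of the study. RFIneg pigs came from a line with low residual feed intake and ate ad libitum. RFIpl pigs came from a line with high residual feed intake and also ate ad libitum. RFIplR pigs came from the same high line but were given the amount of feed that RFIneg pigs received. All pigs weighed 115 kg, and each of the 8 pigs in a group gave 1 array of total RNA labelled with Cy3. RFIneg therefore differed from RFIpl in line and intake, whereas RFIplR differed from it in feeding level within one line. Intakes, ages and sexes of single pigs were not used here.

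Residual feed intake is the part of an animal's intake that its growth and maintenance do not predict, so a pig with a low value eats less for the same performance. Subcutaneous fat stores triglyceride in droplets coated by perilipins, releases fatty acids and glycerol when energy is short, and secretes hormones such as leptin. The tissue also holds blood vessels, connective tissue and resident immune cells. Because bulk tissue was measured, fewer cells of a type and less RNA per cell cannot be told apart.

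The array reads each transcript through a DNA probe of 60 bases. Probes of 6 of the 30 leading genes described below are shown first, as examples from both directions, 5′ to 3′ as the array files give them. Genome coordinates were not used here. CYP2A19, CA3, SNCG and S100A12 were higher on the lower intake side, and CLDN4 and the probe with the symbol RFC4 were lower.
CYP2A19: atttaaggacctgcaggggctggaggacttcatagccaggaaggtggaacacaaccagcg
CA3: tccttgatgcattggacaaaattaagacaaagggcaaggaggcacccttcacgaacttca
SNCG: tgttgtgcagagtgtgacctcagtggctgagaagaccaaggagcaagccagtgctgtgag
S100A12: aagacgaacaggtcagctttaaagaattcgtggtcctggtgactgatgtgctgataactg
CLDN4: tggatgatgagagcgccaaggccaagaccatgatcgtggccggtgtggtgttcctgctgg
RFC4: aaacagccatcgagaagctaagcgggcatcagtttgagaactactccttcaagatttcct
The last of these has conflicting names. The symbol in the array files is RFC4, part of the complex that loads the sliding clamp onto DNA, whereas the description of the same probe names insulin-like growth factor 2 mRNA binding protein 2. It is called the RFC4-symbol probe below, and its name is uncertain.

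The arrays differed in brightness and in the tissues they carried. The 75th percentile of the processed intensity was 414 to 663 on 17 bright arrays and 69.4 to 94.4 on 7 dim ones (2 RFIneg, 2 RFIpl and 3 RFIplR), and brightness was a block in the fit behind every value below, unless another fit is named. The share of probes well above background ranged over the arrays from 43.1% to 79.9%. Transcripts of skeletal muscle were high on RFIpl 2, where the summed level of 11 markers was 1682 times the 75th percentile of the array, against 52.6 on RFIpl 1 and at most 71.7 on any lower intake array. Transcripts of skin epithelium were high on RFIpl 7 and RFIpl 8, at 68.4 and 22.9, against at most 1.96 on any other array. The array labelled RFIpl 3 went against its group. For 25 of the 30 leading genes named below it was the RFIpl array nearest to the lower intake arrays, and for 28 of 30 it lay within their range. Each of the other 7 RFIpl arrays lay within that range for 3 to 9 of the 30 genes. Results are therefore also given without the array labelled RFIpl 3, without RFIpl 1 and 2, without RFIpl 7 and 8, and without these 4 arrays (RFIpl 1, 2, 7 and 8). RFIpl 1 was left out with RFIpl 2 although its summed muscle level lay within the range of the lower intake arrays. The array labelled RFIpl 3 was singled out by its closeness to the lower intake arrays in this same contrast. Larger differences or counts without it follow from that choice and are no support for them. The part of muscle and skin tissue in the results was not tested.

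Fat of the lower intake side held more transcript of the carboxylesterase CES1 (3.26 on the log2 scale), the cytochrome P450 CYP2A19 (3.03), the carbonic anhydrase CA3 (2.37), the calgranulin S100A12 (1.93) and catalase (CAT, 0.54), and 5 of 9 measured genes of class II antigen presentation were higher. It held less transcript of the collagen chain COL1A2 (-0.68), the kinase AKT1 (-0.71) and the peroxisome gene PEX11A (-0.95). Of 19 measured matrix genes, 5 were lower and 1 was higher, but 2 were lower and 3 higher with each array scaled on its median. At an adjusted p under 0.05 (limma, Benjamini-Hochberg over all probes), 3569 of 28606 probes were called, which is 12.5%. Of these, 2050 were higher on the lower intake side (7.17%) and 1519 were lower (5.31%). Among 4324 genes with 1 symbol, each read at its brightest kept probe, 631 were called (14.6%), 413 higher (9.55%) and 218 lower (5.04%). These last percentages are the background for every gene list below. To be kept, a probe had to clear background on 6 or more of 8 arrays in any group, which favours a difference at probes that only their higher side carried. Of the 1519 lower probes 242 were kept through RFIpl alone, and of the 2050 higher probes 27 through the lower intake side alone. Most called differences were small. The median size was 0.52 on the log2 scale, and 353 called probes exceeded 1, of which 205 were higher and 148 lower. The split between directions moved with the scaling, from 57.4% higher here to 74.4% with each array scaled on its median and 34.7% with the 75th percentile taken over probes well above background on all arrays.

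The count of called probes moved with the RFIpl arrays used. It was 2518 without RFIpl 1 alone and 3326 without RFIpl 2 alone, the array with muscle transcripts. Without the array labelled RFIpl 3 it was 4689, without RFIpl 1 and 2 it was 1969, without RFIpl 7 and 8 it was 2128, and without RFIpl 1, 2, 7 and 8 it was 119. All 3569 called probes kept their direction when those 4 arrays were left out. This is favoured, since the probes were picked from a fit that shared all the other arrays. Leaving out arrays also makes the RFIpl group smaller, which cannot be told apart from what those arrays carried. No probe passed within the 7 dim arrays alone (4237 at an unadjusted p under 0.05, limma), 1667 passed within the bright arrays, and 228 passed with no block. With slide as a block in place of brightness 103 were called, with scan day 365, with brightness and slide together 2042 and with brightness and scan day together 3246. Within scan day 1 no probe passed (4278 at an unadjusted p under 0.05, limma) and within scan day 2 there were 45.

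Taken apart, RFIneg differed from RFIpl at 1895 probes (6.62%), 1236 higher and 659 lower. RFIplR differed from RFIpl at 2963 probes (10.4%), 1673 higher and 1290 lower. Both comparisons use the same 8 RFIpl arrays. Without the array labelled RFIpl 3 these counts were 3399 and 3671, and without RFIpl 1, 2, 7 and 8 they were 0 (3360 at an unadjusted p under 0.05, limma) and 389. The lower groups were also tested against each other. At the same threshold 0 of 28606 probes (0%) differed between RFIneg and RFIplR, the smallest adjusted p was 0.241 (limma), and 2714 probes (9.49%) had an unadjusted p under 0.05. Among the 3569 probes called between the sides, 407 (11.4%) had such a p, and the median size of the difference between RFIneg and RFIplR was 0.14. This does not show that the lower groups are alike, since the 95% intervals of single genes were wide. Leaving out RFIneg 8 gave 55 called probes between the lower groups, leaving out RFIplR 8 gave 5 and leaving out RFIneg 7 gave 2.

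Levels below are log2 of the processed intensity minus the 75th percentile of the array, after the fitted effect of brightness was removed, so dim and bright arrays can be set side by side for one probe. They do not compare one gene with another. A gene is named as leading when it was among the 15 genes in each direction for which the smaller of the RFIneg and RFIplR differences was largest. Each leading gene was read at its called probe with the largest such value, not at its brightest probe. Other probes of the same gene can therefore differ less. These genes were picked from the contrast itself, so their sizes are a description of the largest differences. Of the 15 lower genes, 9 were kept through RFIpl alone (CLDN3, CLDN4, SH3GL3, TGM1, PID1, MFSD2A, the RFC4-symbol probe, MCM3 and MOXD1), and of the 15 higher ones KLKB1 was not kept through RFIpl. Their sizes rest on arrays near background on the other side and are uncertain.

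The higher gene with the largest difference was CES1. It encodes a carboxylesterase that hydrolyses esters, and the array design lists it under the older symbol CES3. Its level was 0.73 at the lowest, 2.06 at the median and 5.64 at the highest of the RFIpl arrays, 5.23, 6.07 and 6.64 in RFIneg, and 4.31, 5.57 and 7.43 in RFIplR. The array labelled RFIpl 3 was the highest of its group, RFIpl 7 the next at 4.51, and the other 6 RFIpl arrays lay below every lower intake array. CES1 was 3.26 higher on the lower intake side (SE 0.51, 9.58-fold, adjusted p = 0.000482, limma), with all 7 kept probes called.

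CYP2A19, a cytochrome P450 that oxidises foreign compounds and steroids, spanned -5.66, -2.96 and 0.18 (lowest, median, highest) in RFIpl, -2.51, -0.41 and 0.61 in RFIneg, and -0.72, 0.35 and 0.98 in RFIplR. RFIneg 1, the lowest lower intake array, lay under 3 RFIpl arrays, and without it only the array labelled RFIpl 3 overlapped the lower intake arrays. The difference was 3.03 (SE 0.55, 8.15-fold, adjusted p = 0.001316, limma) over 7 probes that were all called. RFIneg stood 0.75 below RFIplR for CYP2A19, with a 95% interval from -2.07 to 0.56. UGT1A6, which attaches glucuronic acid, was higher by 1.93 (adjusted p = 0.002271) and SULT2A1, a steroid sulphotransferase, by 1.79 (adjusted p = 0.02765). Both rested partly on RFIpl 2, at -1.90 for UGT1A6 and -5.33 for SULT2A1, and without RFIpl 1 and 2 their differences were 1.34 and 0.93 (adjusted p = 0.005612 and 0.04231, limma). SDR16C5, a short-chain dehydrogenase that oxidises retinol, was at -0.03, 0.50 and 3.28 in RFIpl, 2.79, 3.14 and 3.36 in RFIneg, and 2.54, 3.17 and 3.57 in RFIplR. 7 of the RFIpl arrays lay below all lower intake arrays, and the array labelled RFIpl 3 lay among them. SDR16C5 was 2.28 higher (SE 0.28, 4.84-fold, adjusted p = 0.000147, limma).

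CA3 encodes a carbonic anhydrase abundant in fat and muscle. Its levels were -0.05, 1.52 and 3.47 in RFIpl, 3.43, 4.09 and 4.59 in RFIneg, and 2.22, 3.86 and 4.65 in RFIplR. 11 of the lower intake arrays lay above every RFIpl array, and 6 RFIpl arrays lay below every lower intake array. The difference was 2.37 (SE 0.41, 5.16-fold, adjusted p = 0.001011, limma), and all 20 CA3 probes were called, at 1.89 to 2.37. CA3 is also a muscle gene, and RFIpl 2, the array with muscle transcripts, was at 2.19.

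UCP3, which belongs to the mitochondrial uncoupling proteins, was at 3.61, 4.23 and 5.80 in RFIpl, 5.25, 5.95 and 7.14 in RFIneg, and 5.80, 6.18 and 6.87 in RFIplR. The highest RFIpl arrays for UCP3 were the array labelled RFIpl 3 and RFIpl 2, and the other 6 lay below all lower intake arrays. UCP3 was 1.68 higher (SE 0.27, 3.20-fold, adjusted p = 0.000518, limma). Its relative UCP2, of the same family, moved the other way and was lower by 0.72 (adjusted p = 0.02699), with -0.30 (adjusted p = 0.604, limma) once RFIpl 1, 2, 7 and 8 were left out.

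SNCG, gamma-synuclein, is abundant in neurons and fat cells and was at -4.34, -2.01 and 0.25 in RFIpl, -0.84, -0.28 and 0.49 in RFIneg, and -1.06, 0.01 and 0.92 in RFIplR. It was 2.11 higher (SE 0.38, adjusted p = 0.001345, limma), and 7 RFIpl arrays lay below all lower intake arrays. UCHL1, a ubiquitin hydrolase, was higher by 2.18 (adjusted p = 0.001099), and RFIneg exceeded RFIplR by 0.64 with a 95% interval from -0.29 to 1.57. MYOC, the secreted glycoprotein myocilin, was higher by 2.05 (adjusted p = 0.000514). KLKB1, plasma prekallikrein, was higher by 2.60 (adjusted p = 0.001051) and cleared background on 6 RFIneg, 5 RFIpl and 5 RFIplR arrays. MTMR7, a phosphoinositide phosphatase, was higher by 1.62 (adjusted p = 0.00946) and cleared it on 6, 6 and 5 arrays in that order. UBD, a ubiquitin-like modifier, was higher by 1.68 (adjusted p = 0.003714).

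Calgranulins, calcium-binding proteins of neutrophils and monocytes, were higher at the 3 genes measured. S100A12 was at 0.34, 1.13 and 2.64 in RFIpl, 2.66, 2.94 and 3.75 in RFIneg, and 2.62, 3.04 and 3.88 in RFIplR. 15 of the 16 lower intake arrays lay above every RFIpl array, and RFIplR 6 lay just below the array labelled RFIpl 3. S100A12 was 1.93 higher (SE 0.22, 3.81-fold, adjusted p = 8.637e-05, limma), by 1.90 in RFIneg and 1.96 in RFIplR, and RFIneg minus RFIplR was -0.06 (95% interval -0.58 to 0.46). S100A8 was higher by 1.98 (SE 0.29, adjusted p = 0.000351), with RFIneg minus RFIplR at 0.40 (95% interval -0.30 to 1.10), and S100A9 by 1.15 (SE 0.27, adjusted p = 0.008476). The S100A9 difference was 1.49 within bright arrays and 0.22 within dim ones.

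**Figure D1:**
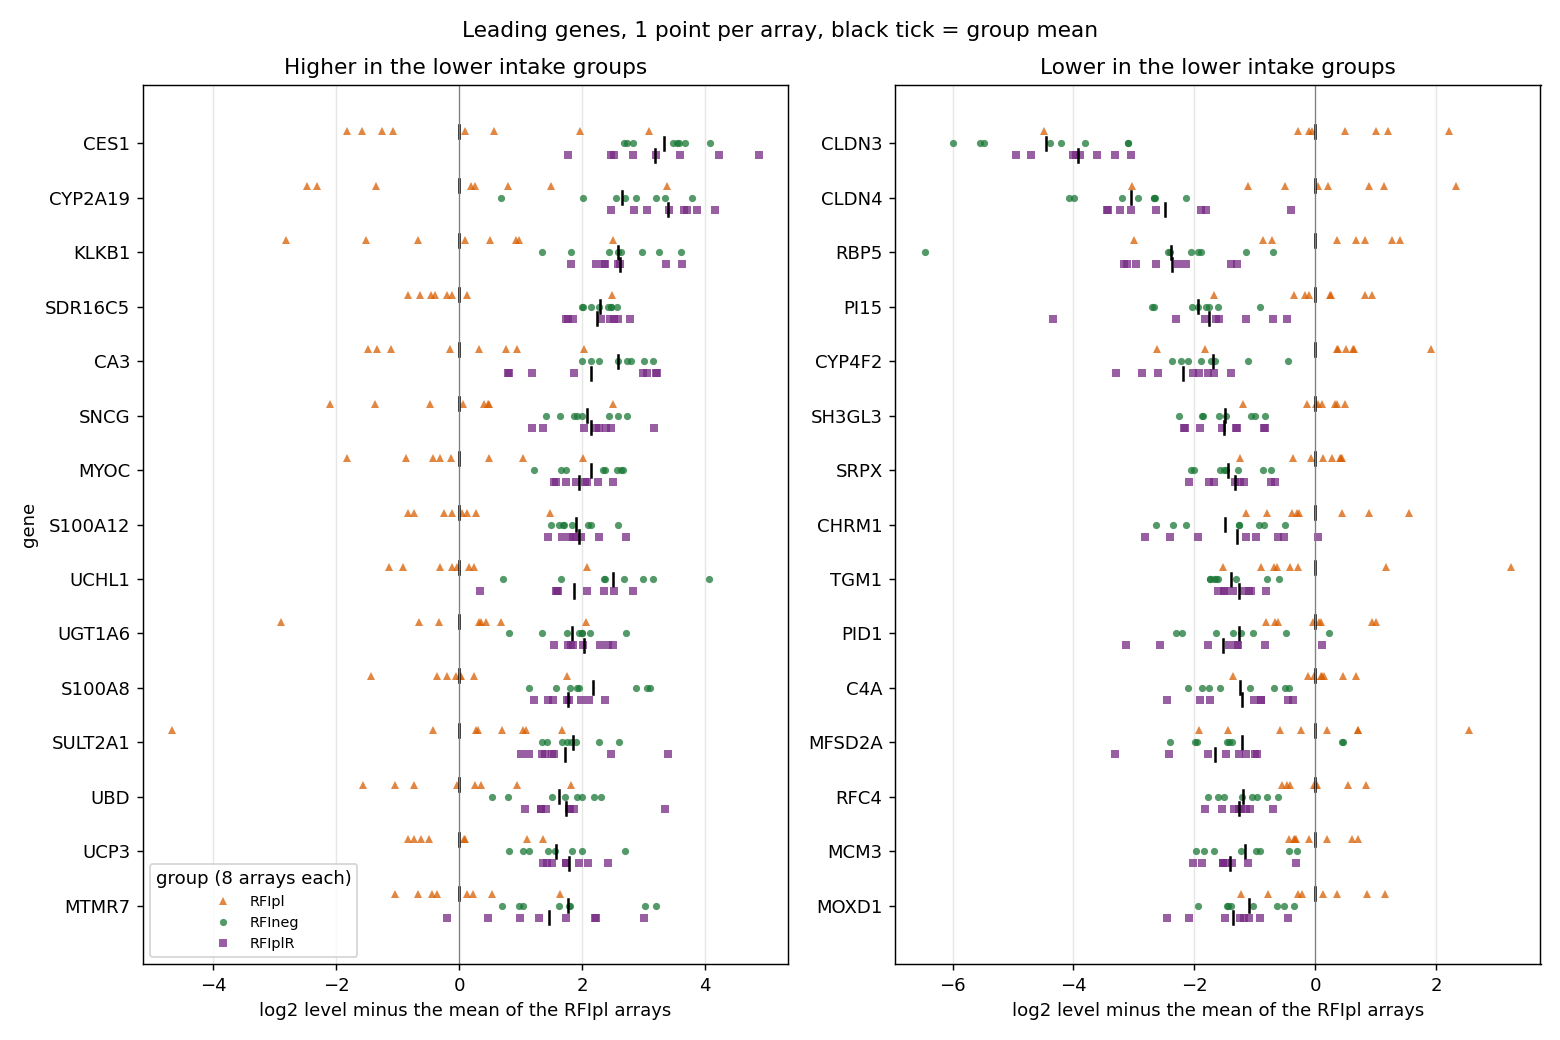
Levels of the 15 leading genes in each direction, on the horizontal axis as log2 level minus the mean of the RFIpl arrays after the fitted brightness effect was removed. Each point is 1 array (triangles RFIpl, circles RFIneg, squares RFIplR, 8 each) and black ticks are group means; CES1 stands 3.26 to the right and CLDN3 4.19 to the left, and 1 RFIpl triangle, the array labelled RFIpl 3, lies among the lower intake points for 28 of the 30 genes.

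CLDN3 and CLDN4, tight junction proteins of epithelia, had the largest differences among lower genes, and both were kept through RFIpl alone. CLDN3 was at -3.78, 0.93 and 2.93 in RFIpl, -5.28, -3.59 and -2.39 in RFIneg, and -4.24, -3.21 and -2.33 in RFIplR. 7 RFIpl arrays lay above every lower intake array, and the array labelled RFIpl 3 lay among the lower intake arrays. CLDN3 fell by 4.19 (SE 0.57, adjusted p = 0.000167, limma) at this probe. It exceeded background clearly on 4 RFIneg, 8 RFIpl and 5 RFIplR arrays. Its other kept probe differed by -0.62 and was not called.

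CLDN4 was at -5.97, -2.81 and -0.61 in RFIpl, -7.01, -5.75 and -5.08 in RFIneg, and -6.38, -5.78 and -3.34 in RFIplR. The array labelled RFIpl 3 was the lowest of RFIpl, and RFIplR 4 was the highest of the lower intake arrays. CLDN4 cleared background on 3 RFIneg arrays, 7 RFIpl arrays and 3 RFIplR arrays. Its fitted difference was -2.76 (SE 0.49, adjusted p = 0.001186, limma), and since most lower intake arrays did not clear background its size is uncertain. Without RFIpl 1, 2, 7 and 8, CLDN3 differed by -3.14 (adjusted p = 0.05129) and CLDN4 by -1.56 (adjusted p = 0.1515, limma).

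The probe of RBP5, a cellular retinol-binding protein that the array design lists as CRABP1, fell by 2.37 (SE 0.58, adjusted p = 0.01003, limma), and without RFIpl 1 and 2 by 2.0 (adjusted p = 0.06093). CRABP1 was also measured as a separate gene and was not called, so the name of the RBP5 probe is uncertain. RFIneg 6 was the lowest array for RBP5 at -4.57. CYP4F2, which hydroxylates fatty acids and leukotrienes, fell by 1.94 (adjusted p = 0.004462). TGM1, the transglutaminase of the cornified skin layer, fell by 1.33 (adjusted p = 0.02687), with RFIpl 7 at 0.22 and RFIpl 8 at -1.85 as its highest arrays. Without RFIpl 7 and 8 the TGM1 difference was -0.58 (adjusted p = 0.04112, limma). MFSD2A, a transporter of lysophospholipids, fell by 1.44 (adjusted p = 0.04626) and was -0.89 (adjusted p = 0.2223, limma) without the same 2 arrays.

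PI15, a peptidase inhibitor, fell by 1.84 (adjusted p = 0.003227), SRPX, a sushi-repeat protein, by 1.38 (adjusted p = 0.000515), and MOXD1, a relative of dopamine beta-hydroxylase, by 1.23 (adjusted p = 0.006972). SH3GL3, an endophilin, was at -3.20, -1.92 and -1.51 in RFIpl, -4.25, -3.54 and -2.83 in RFIneg, and -4.18, -3.43 and -2.83 in RFIplR. It fell by 1.5 (SE 0.22, adjusted p = 0.000338, limma), and 7 RFIpl arrays lay above all lower intake arrays. CHRM1, a muscarinic acetylcholine receptor, fell by 1.39 (adjusted p = 0.01758), with -1.90 within bright arrays and -0.01 within dim ones. PID1, an adaptor of insulin signalling in fat, fell by 1.39 (adjusted p = 0.01383) but cleared background on 2 RFIneg, 6 RFIpl and 1 RFIplR arrays. Complement component C4A fell by 1.23 (adjusted p = 0.006825).

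The RFC4-symbol probe and MCM3 were dim, and both were kept through RFIpl alone. The RFC4-symbol probe was at -3.70, -3.15 and -2.31 in RFIpl, -4.93, -4.28 and -3.76 in RFIneg, and -4.96, -4.39 and -3.85 in RFIplR. All 16 lower intake arrays lay below all 8 RFIpl arrays, the array labelled RFIpl 3 included. The RFC4-symbol probe fell by 1.23 (SE 0.18, adjusted p = 0.000313, limma) and cleared background on 4 RFIneg, 7 RFIpl and 4 RFIplR arrays. MCM3, part of the replicative helicase, fell by 1.29 (SE 0.23, adjusted p = 0.00113, limma), with 13 of 16 lower intake arrays below every RFIpl array.

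All 30 leading genes kept their direction in each of these left-out sets, which their choice from the fit of all arrays favours. Without the array labelled RFIpl 3, 15 of 15 higher and 14 of 15 lower genes were called, with median sizes 1.136 and 1.128 times those of all arrays. That array was singled out for its closeness to the lower intake arrays at these genes, so the larger sizes follow from the choice. Without RFIpl 1 and 2 the called genes were 15 and 12, and without RFIpl 7 and 8 also 15 and 12. Without RFIpl 1, 2, 7 and 8, 4 higher genes (CES1, SDR16C5, S100A12 and UCP3) and 2 lower ones (the RFC4-symbol probe and MCM3) were called, with median sizes 0.772 and 0.8 times those of all arrays. Both of these lower genes were kept through RFIpl alone, which favours a difference, so their calls are no support for one.

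Complete separation of the 16 lower intake arrays from the 8 RFIpl arrays was found at 18 higher probes (0.0629%) and 5 lower probes (0.0175%), named after their values were seen. The higher ones held 2 probes of CAT (catalase) at 0.47 and 0.52, 2 of APP (amyloid precursor protein) at 0.60 and 0.66, and 1 each of GLRX (glutaredoxin, 0.74), FAM214A (0.77), CD302 (a lectin-like receptor, 0.63), SNX16 (a sorting nexin, 0.63), KCTD9 (0.58) and SUPV3L1 (a mitochondrial RNA helicase, 0.35). The remaining 8 had no assigned symbol. The lower ones were the RFC4-symbol probe, GALNT7 (a glycosyltransferase of mucin-type glycans, -0.83), FRMD6 (-0.69) and 2 without a symbol.

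Gene lists for fat tissue were read as counts of called members against the background of 9.55% higher and 5.04% lower. Hormones and receptors of fat had 4 of 10 measured genes higher and none lower, with a median of 0.23 against 0.02 over all genes. LEP, the satiety hormone leptin, was at -0.06, 2.13 and 3.94 in RFIpl, 0.88, 3.49 and 3.75 in RFIneg, and 2.53, 3.23 and 3.71 in RFIplR. RFIneg 7 was the lowest lower intake array, with the next RFIneg array at 3.29, and the array labelled RFIpl 3 was the highest of all 24, so the sides overlapped. LEP rose by 1.35 (SE 0.40, 2.55-fold, adjusted p = 0.02914, limma), whereas neither group alone passed against RFIpl (1.36 and 1.34, adjusted p = 0.07673 and 0.06632, limma). AGT, angiotensinogen, rose by 0.75 (adjusted p = 0.007052), ADIPOR2, an adiponectin receptor, by 0.45 (adjusted p = 0.009552) and GHR, the growth hormone receptor, by 0.42 (adjusted p = 0.01224). ADIPOQ itself, the adiponectin gene, differed by 0.19 (adjusted p = 0.1927) at its brightest probe, although 6 of its 8 probes were called.

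Lipolysis and its control had 4 of 13 genes higher and none lower, with a median of 0.06 that became -0.01 when the 75th percentile was taken over probes well above background on all arrays. LIPE, hormone-sensitive lipase, was at 6.82, 7.38 and 8.16 in RFIpl, 7.61, 8.04 and 8.08 in RFIneg, and 7.52, 7.71 and 8.15 in RFIplR. 7 RFIpl arrays lay below all lower intake arrays, and the array labelled RFIpl 3 lay above all of them. LIPE rose by 0.45 (SE 0.12, adjusted p = 0.0155, limma). Also higher were ADORA1, the adenosine receptor that restrains lipolysis (0.75, adjusted p = 0.004328), AQP7, the glycerol channel of fat cells (0.69, adjusted p = 0.008686), and NPR1, the natriuretic peptide receptor (0.43, adjusted p = 0.01372). PNPLA2, adipose triglyceride lipase, differed by 0.06 (adjusted p = 0.8131).

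Triglyceride assembly and the droplet coat had 3 of 12 genes higher and none lower, with a median of 0.19. PLIN1, the main droplet coat protein, was at 1.41, 1.85 and 2.02 in RFIpl, 1.93, 2.24 and 2.68 in RFIneg, and 1.87, 2.1 and 2.45 in RFIplR. 12 of the lower intake arrays lay above every RFIpl array, and PLIN1 rose by 0.43 (SE 0.11, adjusted p = 0.01038, limma). CIDEC, which enlarges droplets, rose by 0.66 (adjusted p = 0.01442) and GPD1, which supplies glycerol 3-phosphate, by 0.33 (adjusted p = 0.04598). DGAT2, of the last step of triglyceride synthesis, differed by -0.10 (adjusted p = 0.8469), by 0.23 in RFIneg and -0.43 in RFIplR.

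Fat synthesis enzymes had no called member among 11 (limma), although the median was 0.52. FASN, fatty acid synthase, was at 6.05, 8.14 and 8.94 in RFIpl, 8.33, 8.68 and 8.83 in RFIneg, and 7.77, 8.56 and 8.74 in RFIplR, and RFIpl 2 was the lowest array. Its difference was 0.52 (adjusted p = 0.1493). For SCD, stearoyl-CoA desaturase, the difference was 0.96 (adjusted p = 0.1094), with RFIpl 2 at 3.92 against 7.63 for the next lowest RFIpl array. ACACA, acetyl-CoA carboxylase, differed by -0.01 (adjusted p = 0.9883, limma). Without RFIpl 2 the median of the list was 0.24 with no member called, and without the array labelled RFIpl 3 it was 0.65 with 4 members higher.

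Fatty acid uptake had 1 of 9 genes lower, FABP3, a fatty acid-binding protein (-0.41, adjusted p = 0.04692). LPL, lipoprotein lipase, differed by 0.32 (adjusted p = 0.1916) and CD36, a fatty acid transporter, by 0.11 (adjusted p = 0.4828). Fatty acid oxidation had 3 of 15 genes higher and 1 lower, with a median of 0.24. ACADL, HADH and ECHS1, enzymes of the mitochondrial spiral, rose by 0.70, 0.65 and 0.54 (adjusted p = 0.01289, 0.006288 and 0.01038). PEX11A, which drives division of peroxisomes, was at 2.38, 2.83 and 3.35 in RFIpl, 1.48, 2.16 and 2.88 in RFIneg, and 1.27, 1.54 and 1.76 in RFIplR. PEX11A fell by 0.95 (SE 0.16, adjusted p = 0.000713, limma), and all RFIplR arrays lay below all RFIpl arrays. It differed by -0.62 in RFIneg and -1.27 in RFIplR, and the gap of 0.65 between these groups was not called (adjusted p = 0.342, limma).

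In the citrate cycle and pyruvate node, 2 of 18 genes were higher and 2 lower. CS, citrate synthase, rose by 0.53 (adjusted p = 0.005502) and PC, pyruvate carboxylase, by 0.43 (adjusted p = 0.00616). IDH2, the mitochondrial NADP-dependent isocitrate dehydrogenase, fell by 0.45 (adjusted p = 0.001837) and PCK2, the mitochondrial PEP carboxykinase, by 0.50 (adjusted p = 0.02133). Cytosolic PCK1 differed by -0.06 (SE 0.56, adjusted p = 0.9603) and PDK4, which blocks pyruvate oxidation, by 0.98 (SE 0.51, adjusted p = 0.2169, limma). Glucose uptake and glycolysis had 1 of 14 genes lower, PKM2, pyruvate kinase (-0.65, adjusted p = 0.01888), and the insulin-regulated transporter SLC2A4 differed by 0.24 (adjusted p = 0.5468). Branched-chain and other amino acid breakdown had 3 of 10 genes higher and 1 lower, with a median of 0.37. Without RFIpl 2, the array with muscle transcripts, 1 was higher (median 0.26), without the array labelled RFIpl 3 there were 5, and without RFIpl 1, 2, 7 and 8 none (median 0.25). ALDH6A1, DBT and IVD, enzymes of branched-chain amino acid breakdown, rose by 0.70, 0.57 and 0.80 (adjusted p = 0.004345, 0.02273 and 0.04399), and GLUL, glutamine synthetase, fell by 0.57 (adjusted p = 0.04652).

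**Figure D2:**
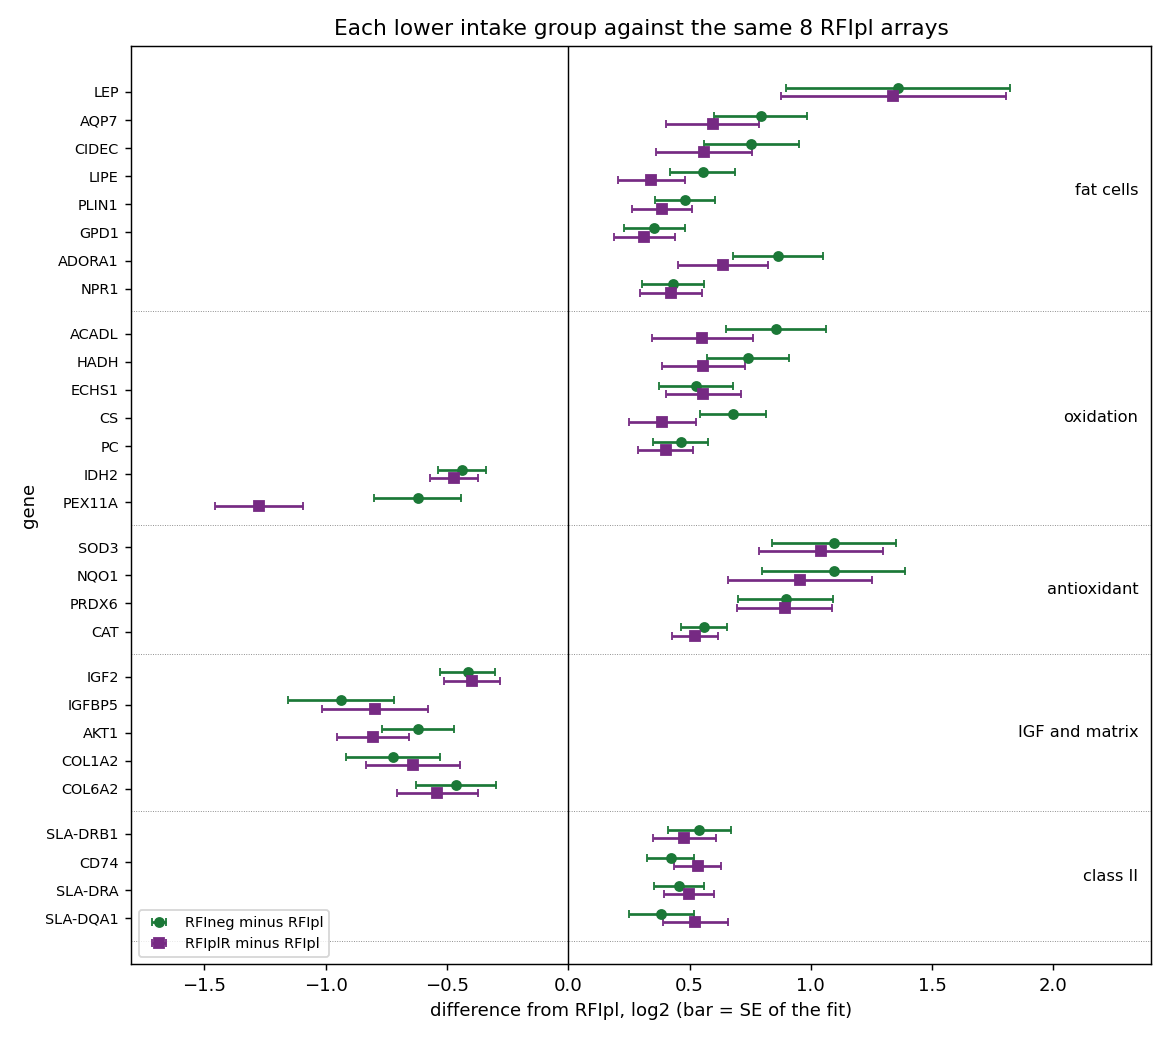
Difference of RFIneg (circles) and RFIplR (squares) from the same 8 RFIpl arrays, on the horizontal axis in log2 units, for named members of the gene lists, with bars of 1 SE of the fit. LEP stands at 1.36 and 1.34, CAT at 0.56 and 0.52, and PEX11A at -0.62 and -1.27. No gene shown lies on opposite sides of 0 in the lower groups. All were called in the combined comparison, which favours the same direction in both groups.

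Antioxidant enzymes had 5 of 16 genes higher and 1 lower, with a median of 0.32. CAT, catalase, breaks down hydrogen peroxide. At its brightest probe it was at 6.24, 6.39 and 6.71 in RFIpl, 6.73, 6.93 and 7.19 in RFIneg, and 6.67, 6.96 and 7.19 in RFIplR. Only RFIplR 3 among the 16 lower intake arrays lay below an RFIpl array, the array labelled RFIpl 3. CAT rose by 0.54 (SE 0.08, 1.45-fold, adjusted p = 0.000416, limma) with all 9 probes called, and was 0.55 higher (adjusted p = 0.04614) without RFIpl 1, 2, 7 and 8. PRDX6, a peroxiredoxin, rose by 0.89 (adjusted p = 0.001949), SOD3, extracellular superoxide dismutase, by 1.07 (adjusted p = 0.003357), and NQO1, a quinone reductase, by 1.02 (adjusted p = 0.0115). SOD1 was also called higher and HMOX1, haem oxygenase, lower.

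Class II antigen presentation had 5 of 9 genes higher and none lower, with a median of 0.34. CD74, the invariant chain that escorts class II molecules, was at 1.80, 2.09 and 2.46 in RFIpl, 2.47, 2.51 and 2.65 in RFIneg, and 2.45, 2.63 and 2.97 in RFIplR. 7 RFIpl arrays lay below all lower intake arrays, and the array labelled RFIpl 3 lay just above RFIplR 1, the lowest of them. CD74 rose by 0.48 (SE 0.08, 1.39-fold, adjusted p = 0.001025, limma). The pig class II genes SLA-DRA, SLA-DRB1 and SLA-DQA1 rose by 0.48, 0.51 and 0.45 (adjusted p = 0.001815, 0.004943 and 0.01328), and SLA-DQB1 was called higher too. SLA genes are near-identical in sequence, so signal may be shared among their probes. Class I presentation had 4 of 14 genes higher and none lower, with a median of 0.18, among them B2M, the common light chain (0.28, adjusted p = 0.01194, 10 of 10 probes called), and SLA-3 (0.43, adjusted p = 0.01941). None of these 14 was called with normexp background correction (limma). With the 75th percentile over probes well above background on all arrays, 2 were higher and 1 lower. Neither of 2 related lists had a called member (limma). The interferon response stood at 0 of 18 genes, with a median of -0.01, and inflammatory cytokines and chemokines at 0 of 18, with a median of 0.04, and both medians changed sign under another scaling. Summed macrophage markers spanned 7.58 to 16.6 in RFIpl and 4.41 to 15.5 across the lower intake arrays, with none of 5 called. Without RFIpl 1, 2, 7 and 8 the class II list had no member called and a median of 0.13, and the class I list none and 0.15.

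Autophagy and lysosome had 3 of 14 genes higher and none lower, with a median of 0.23. CTSD, the lysosomal protease cathepsin D, was at 3.59, 4.09 and 4.40 in RFIpl, 4.34, 4.61 and 4.81 in RFIneg, and 4.45, 4.58 and 4.89 in RFIplR. 14 of the lower intake arrays lay above every RFIpl array, and CTSD rose by 0.58 (SE 0.10, adjusted p = 0.00098, limma). CTSB, cathepsin B, rose by 0.43 (adjusted p = 0.009546) and LIPA, lysosomal acid lipase, by 0.60 (adjusted p = 0.01006).

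Energy sensing had 2 of 14 genes higher, adipogenic transcription factors 1 of 13 higher and 2 lower, glucocorticoid activation and response 1 of 7 higher and the circadian clock 1 of 3 higher, against the background of 9.55% and 5.04%. The glucocorticoid list had a median of -0.44, with 2 of 7 differences above 0. Its higher call was lost with normexp background correction and with quantile normalization. With the 75th percentile over probes well above background on all arrays it had 0 higher and 1 lower. The clock call was lost in the same settings. KLF15, a transcription factor induced by fasting and glucocorticoids, rose by 0.87 (SE 0.17, adjusted p = 0.002134) and KLF9, a glucocorticoid-induced factor, by 0.48 (adjusted p = 0.04073). SIRT1, a NAD-dependent deacetylase, rose by 0.47 (adjusted p = 0.01373), with 0.21 in RFIneg and 0.73 in RFIplR. FBXO32, a muscle and fat ubiquitin ligase of protein wasting, rose by 1.29 (SE 0.30, adjusted p = 0.008181), with 0.92 in RFIneg (adjusted p = 0.1165) and 1.67 in RFIplR (adjusted p = 0.005422, limma). RFIneg minus RFIplR for FBXO32 was -0.75 (adjusted p = 0.5129, limma). ARNTL, a core clock factor, rose by 0.77 (adjusted p = 0.03373). Lower were EBF2, a factor of fat cell precursors (-0.46, adjusted p = 0.02441), and NR1H3, the sterol receptor LXR alpha (-0.35, adjusted p = 0.03542). PPARG, the master regulator of fat cells, differed by -0.11 (adjusted p = 0.627). HSD11B1, which regenerates cortisol, differed by -0.44 (adjusted p = 0.1079) and FKBP5, a glucocorticoid target, by -0.45 (adjusted p = 0.1742).

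Insulin and IGF signalling had 2 of 16 genes higher and 4 lower, with a median of -0.19. AKT1, a kinase downstream of insulin, was at 0.83, 1.59 and 1.97 in RFIpl, 0.55, 0.83 and 1.28 in RFIneg, and 0.38, 0.68 and 0.95 in RFIplR. RFIpl 2 and the array labelled RFIpl 3 lay among the lower intake arrays and the other 6 RFIpl arrays lay above all of them. AKT1 fell by 0.71 (SE 0.13, adjusted p = 0.00131, limma). IGFBP5, a binding protein for IGFs, fell by 0.87 (adjusted p = 0.004957) and IGF2, a growth factor, by 0.41 (adjusted p = 0.01013), and IGFBP3 was also called lower. IGF2R, which clears IGF2, rose by 0.33 (adjusted p = 0.01117).

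Collagens and extracellular matrix had 1 of 19 genes higher and 5 lower, with a median of -0.27. COL1A2, a chain of type I collagen, was at 3.82, 4.20 and 4.51 in RFIpl, 2.83, 3.48 and 3.82 in RFIneg, and 2.42, 3.55 and 4.23 in RFIplR. 12 of the lower intake arrays lay below every RFIpl array, and COL1A2 fell by 0.68 (SE 0.17, adjusted p = 0.01053, limma). COL6A2 fell by 0.50 (adjusted p = 0.02431) and LAMB1, a laminin chain, by 0.38 (adjusted p = 0.03239), POSTN and COL6A1 were called lower, and SPARC, a collagen-binding protein, rose by 0.32 (adjusted p = 0.03126). These calls moved with the scaling. Median scaling gave 3 higher and 2 lower members, and normexp background correction 0 higher and 3 lower. The 75th percentile over probes well above background on all arrays gave 0 higher and 6 lower. Of the 8 measured genes of cell cycle and DNA replication, the RFC4-symbol probe, MCM3 and CCNB1, cyclin B1 (-0.95, adjusted p = 0.04335), were called. The RFC4-symbol probe and MCM3 were kept through RFIpl alone and one of them has an uncertain name, so the count is not read against the background.

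The other 4 lists without a called gene (limma) were the respiratory chain (10 measured, median -0.04), cholesterol synthesis (9, median 0.13), chaperones (14, median -0.06) and cytosolic ribosomal proteins (14, median 0.00). The respiratory chain median turned to 0.02 with median scaling, and the ribosomal one to -0.08 with quantile normalization. Complement and coagulation had 1 of 15 genes higher and 2 lower. The proteasome and ubiquitin list had 2 of 12 higher, FBXO32 and the proteasome subunit PSMD4 (0.23, adjusted p = 0.02968).

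Leaving out arrays changed these counts unevenly. Without RFIpl 1, 2, 7 and 8, 17 of the 4324 genes were called higher and 8 lower. In that set 1 antioxidant gene (CAT), 1 uncoupling gene (UCP3) and 1 oxidation gene (PEX11A) kept their call, and the lists of lipolysis, droplet coat, hormones, lysosome, collagens and insulin had no called gene. Without RFIpl 1 and 2, collagens had 0 higher and 1 lower, lipolysis 1 higher, the droplet coat 1 higher, hormones 2 higher, class II 3 higher and lysosome 3 higher. Without RFIpl 7 and 8, collagens had 0 higher and 1 lower, lipolysis 2 higher, the droplet coat 2 higher, hormones 4 higher, class II 3 higher and lysosome 3 higher. Without the array labelled RFIpl 3, 540 of the 4324 genes were called higher and 302 lower, with collagens at 2 higher and 6 lower and insulin at 2 higher and 7 lower.

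**Figure D3:**
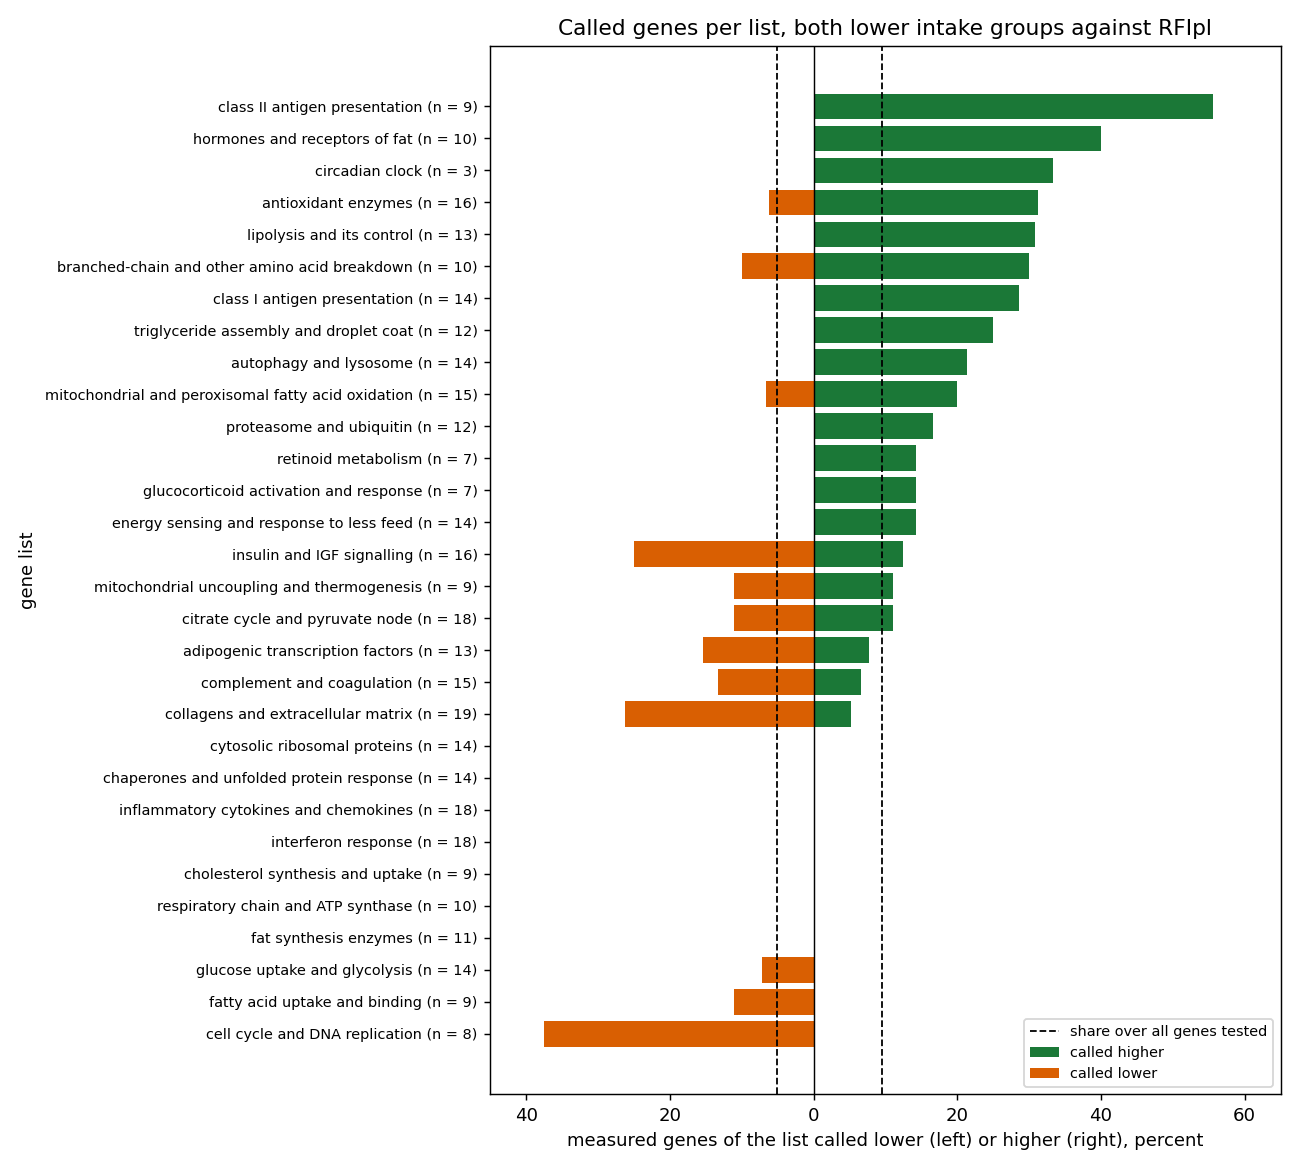
Share of the measured genes of each list that were called higher (right) or lower (left), in percent, both lower intake groups against RFIpl, with the number measured in brackets. Dashed lines mark the share over all 4324 genes (9.55% higher, 5.04% lower). Class II presentation reaches 5 of 9 higher and collagens and matrix 5 of 19 lower, and 2 of the 3 lower cell cycle genes were kept through RFIpl alone. Lists of cell type markers are not drawn.

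Markers of the cell types that fat can hold were summed per array, in multiples of the 75th percentile of the array. Fat cell markers had 4 of 7 genes higher and none lower (LIPE, CIDEC, LEP and PLIN1), and the sum was 827 to 1343 in RFIpl, 996 to 1372 in RFIneg and 1017 to 1279 in RFIplR. The highest RFIpl sum, 1343, was that of the array labelled RFIpl 3, and the next was 1065. These values stand beside the droplet, lipolysis and hormone counts above, and their part in them was not tested. Neutrophil and monocyte markers had 3 of 4 genes higher, with ELANE, neutrophil elastase, at 0.00. The sum was 3.22 to 10.2 in RFIpl, where the second highest array was at 5.21, 10.1 to 20.2 in RFIneg and 9.42 to 19.9 in RFIplR. Endothelial markers had 3 of 6 genes higher, PECAM1 (0.43), VWF (0.43) and CDH5 (0.42), with sums of 46.7 to 69 in RFIpl, 66 to 87.4 in RFIneg and 68.3 to 94.1 in RFIplR. CLDN5, KDR and TEK were not called, and only 4 of the 6 differences were above 0. None of the 6 was called with normexp background correction or without RFIpl 1, 2, 7 and 8 (limma), and 2 were higher and 1 lower with the 75th percentile over probes well above background on all arrays.

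Of 8 measured gland and simple epithelium markers CLDN3 and CLDN4 were called, both kept through RFIpl alone, so the count is not read against the background. The summed levels were 3.06 to 11.8 in RFIpl, 1.57 to 3.14 in RFIneg and 1.20 to 2.53 in RFIplR. The other 6 measured members (KRT8, CSN2, CLDN7, LALBA, EPCAM and CDH1) were not called. In the deposited value table, where the CLDN3 and CLDN4 probes above were not tested, none was called (limma). Skeletal muscle markers (11 measured) and skin epithelium markers (4 measured) had no called gene (limma), with medians of -1.27 and -1.23 that were -0.05 without RFIpl 1 and 2 and -0.07 without RFIpl 7 and 8 in that order. T and B lymphocyte markers had none of 6 called.

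**Figure D4:**
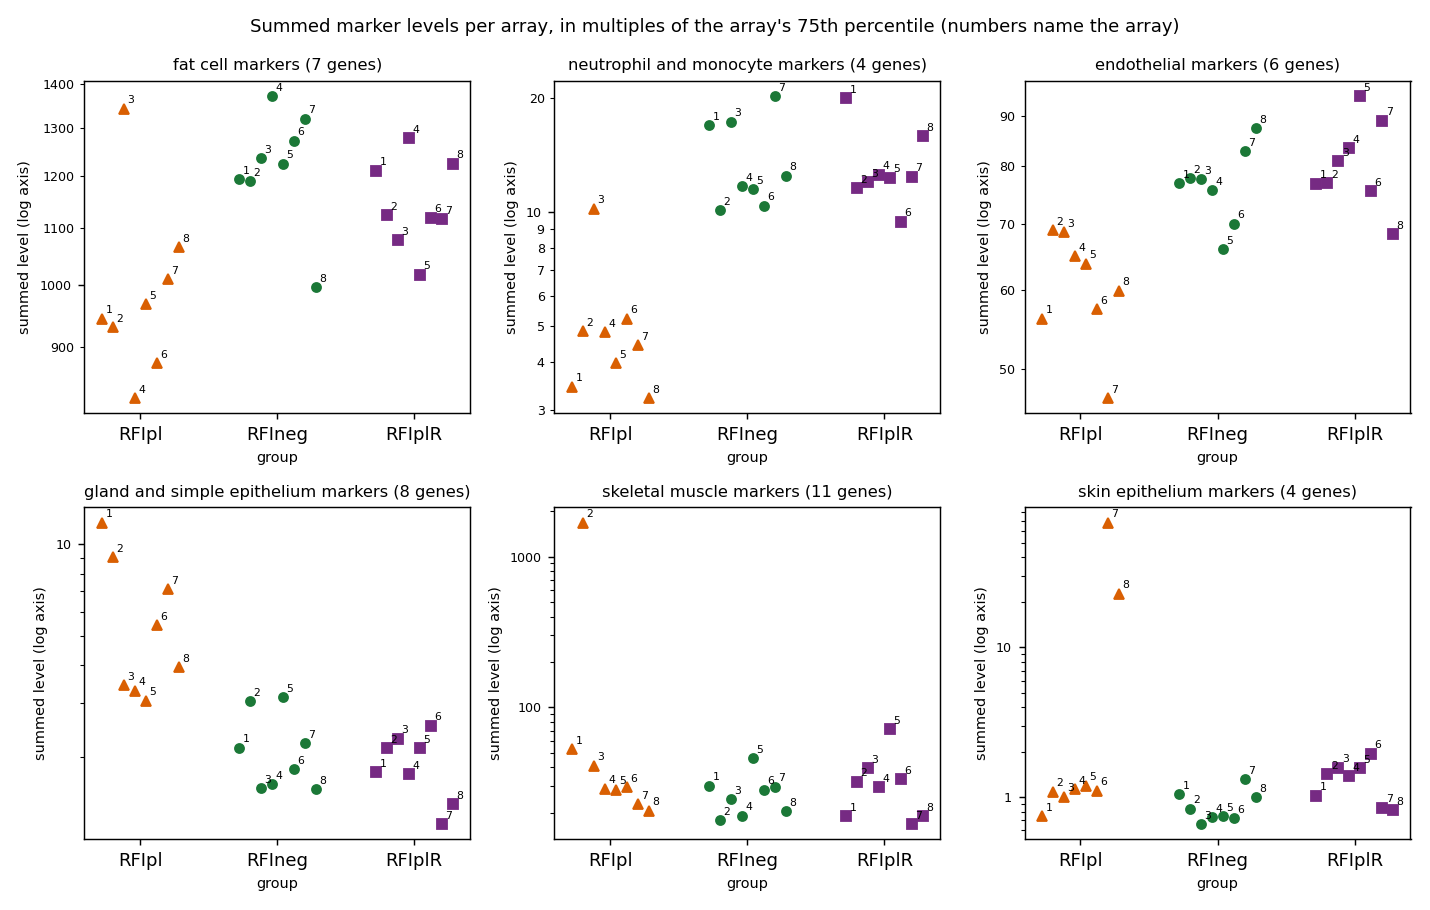
Summed level of 6 marker lists per array, on a log axis in multiples of the array's 75th percentile; each point is 1 array and the number beside it names the array in its group. RFIpl 2 stands at 1682 for muscle, RFIpl 7 and RFIpl 8 at 68.4 and 22.9 for skin, and the array labelled RFIpl 3 at 10.2 for neutrophil and monocyte markers among lower intake arrays at 9.42 to 20.2.

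The difference between sides was compared between bright and dim arrays by an interaction term. It was called at 5 of 28606 probes (0.0175%), with 2172 at an unadjusted p under 0.05 (limma). Of the 3569 called probes, 3527 had the same sign within bright and within dim arrays. The probes were picked with both classes of array in the fit, which favours the same sign. The 1 named probe among the 5, chosen after its value was seen, was NUP188, a nuclear pore protein, at -0.22 within bright arrays and -1.78 within dim ones (adjusted p = 0.03375, limma).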

How the data were processed

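The authors deposited spot intensity values as scanner files. Per the file headers, Feature Extraction 10.7.3.1 made them, subtracting background and spatial trend without scaling between arrays. The authors' deposited value table holds log2 values, which equalled logged processed signals after subtraction of the array median (SD of the difference at most 4.5e-10) and served as an alternative. The submitters' processing notes name R 2.10.0.

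Here, log2 of the processed intensity (floor 1) minus the 75th percentile of each array was used, without control and non-uniform spots, with spots of a probe averaged. A probe was kept when well above background on at least 6 of 8 arrays of a group and missing on at most 6 arrays, which left 28606 of 43603. No spot was saturated. Symbols were assigned to 12186 probes (7187 through the accession and 1366 through the gene ID in RefSeq's gene list, 3592 from the files and 41 from their descriptions), 29 had several and 31388 none. Coordinates were not used here.

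One limma 3.58.1 fit (lmFit and eBayes, R 4.3.3) over 24 arrays held the 3 groups and a block for brightness (bright where the 75th percentile exceeds 200); the lower side is the mean of RFIneg and RFIplR. All p-values for single genes are limma's, two-sided, Benjamini-Hochberg adjusted over all kept probes, threshold 0.05, also where the tool is not repeated. Gene lists got no test, and list medians use each gene's kept probe with the highest mean signal. The text names the 15 leading genes in each direction, up to 4 called members per list (smallest p first), an 18-gene panel (INSR was not analysed here) and any measured marker; other called members are given by name only, and some are not reported here. The comparison, lists and rule were chosen with earlier results of these data known. Same-numbered arrays of different groups correlated at -0.27 to 0.33. This shows no clear pairing but cannot exclude one, and the main fit used none. Alternatives covered blocks, background correction, scaling, filters, variance models and left-out arrays. The script was tested on simulated data. Version 1.17.8 of data.table, Python 3.11.15, pandas 2.3.3, numpy 2.4.6 and matplotlib 3.10.9 were also used. The number of arrays limits the precision.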

Additional observations from a re-analysis of the deposited data

Results flagged for a closer look

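Within each group of 8 arrays, the gap between the most extreme array and its nearest neighbour was divided by the range of the group. This ratio exceeded Dixon's 95% critical value for 8 samples in 25 of 177 combinations of a gene or marker sum with a group (14.1%). Chance gives about 5% for independent, normally distributed values. The combinations share arrays and the marker sums are not on a log scale, so 14.1% cannot be read directly against 5%. Of the 25 combinations, 15 lay in RFIpl, 6 in RFIneg and 4 in RFIplR. Ratios are given in brackets, and causes were not tested.

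The array labelled RFIpl 3 stood apart from the other RFIpl arrays toward the lower intake groups. It was the highest for SDR16C5, at 3.28 with the next at 0.91 (0.714), and for UCHL1, at 1.61 with the next at -0.22 (0.569). It was the lowest for CLDN3, at -3.78 with the next at 0.43 (0.629), for SH3GL3, at -3.20 with the next at -2.14 (0.627), and for C4A, at 0.24 with the next at 1.49 (0.612). Its summed fat cell markers were 1343 with the next at 1065 (0.539), and its neutrophil and monocyte markers 10.2 with the next at 5.21 (0.715).

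RFIpl 2 stood apart through muscle transcripts and low fat synthesis transcripts. Its summed skeletal muscle markers were 1682 with the next RFIpl array at 52.6 (0.981). It was the lowest RFIpl array for SULT2A1, at -5.33 against -1.08 (0.669), FASN, at 6.05 against 7.65 (0.555), SCD, at 3.92 against 7.63 (0.719), PPARG, at 4.69 against 5.44 (0.631), and ACACA, at -0.79 against 1.92 (0.645). RFIpl 7 was the highest for skin epithelium markers, at 68.4 against 22.9 (0.673), and RFIpl 4 for macrophage markers, at 16.6 against 11.3 (0.587).

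In RFIneg, array 7 was the lowest for LEP, at 0.88 against 3.29 (0.841), array 6 for RBP5, at -4.57 against -0.53 (0.701), and array 8 for DGAT2, at 4.40 against 5.55 (0.583). RFIneg 5 was the highest for 3 marker sums, those of skeletal muscle at 46.0 against 30.1 (0.563), T and B lymphocytes at 1.93 against 1.20 (0.649), and nerve and Schwann cells at 18.6 against 6.01 (0.714). In RFIplR, array 2 was the highest for UBD, at 1.90 against 0.42 (0.651), and array 6 the lowest for LPL, at 5.57 against 6.21 (0.536). RFIplR 5 was the highest for skeletal muscle markers, at 71.7 against 39.3 (0.59), and for smooth muscle and pericyte markers, at 208.3 against 125.5 (0.566).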

How the results depend on the processing

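The causes of the shifts below were not tested, and in some settings fewer arrays entered. Counts of called probes are given in the order both lower groups, RFIneg and RFIplR, each against RFIpl. The counts with all arrays were 3569, 1895 and 2963. They were 228, 59 and 85 with no block, 103, 0 and 25 with slide, 365, 47 and 258 with scan day, 2042, 416 and 1694 with brightness and slide, 1667, 297 and 954 within bright arrays, and 0, 0 and 0 within dim arrays (4237, 2726 and 5028 at an unadjusted p under 0.05, limma). Within scan day 1 they were 0, 0 and 0 (4278, 2553 and 5123 unadjusted, limma), and within scan day 2 they were 45, 3 and 59. With slide alone, RFIneg had 2411 probes at an unadjusted p under 0.05 (limma). Normexp background correction gave 948, 490 and 545. Without RFIpl 1 and 2 the counts were 1969, 550 and 1900, without RFIpl 7 and 8 they were 2128, 884 and 1782, and without all 4 they were 119, 0 and 389. With muscle and skin marker levels as covariates, added after seeing the data, they were 1042, 49 and 1505. With no filter on dim probes RFIneg had 1040 and RFIplR 1959, and with array weights 3732 and 4459. Array weights gave 10 probes between RFIneg and RFIplR. Brightness by intake, 5 probes with all arrays, gave 0 with normexp (337 unadjusted, limma), 0 over probes well above background on all arrays (854 unadjusted, limma), 1 with no filter, 1 with trended variance, 1 without RFIpl 7 and 8, 2 without RFIpl 1, 2, 7 and 8, 3 with median scaling, 20 with array weights and 83 with quantile normalization.

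The replicate number as a block, with brightness, gave 2598, 1108 and 1848 called probes. The labels do not say whether the number pairs pigs. Leaving out each array in turn gave 2518 (RFIpl 1) to 4689 (RFIpl 3) for both groups, 1023 (RFIpl 4) to 3399 (RFIpl 3) for RFIneg, 2000 to 3671 for RFIplR, 0 to 55 (RFIneg 8) between RFIneg and RFIplR, and 1 to 37 (RFIpl 6) for brightness by intake. The RFIneg count also fell by over 1.5 times without RFIneg 3 (1159), RFIneg 7 (1211), RFIpl 1 (1087) or RFIpl 8 (1179). Signs of small differences turned. With slide as a block, NPR1 was -0.0948, SPARC -0.0333, CD36 -0.0366, LPL -0.043, PCK1 0.2515, ACACA 0.0705 and FKBP5 0.0705. With scan day as a block, NPR1 was -0.0437, SPARC -0.0229, COL6A2 0.0209, CD36 -0.0597, LPL -0.002 and PCK1 0.0404. ACACA was 0.0172 with no block, 0.0601 within bright arrays, 0.0441 with median scaling and 0.2208 without RFIpl 7 and 8. PCK1 was 0.1541 with brightness and scan day, 0.3798 with brightness and slide, 0.4126 within dim arrays, 1.3777 within scan day 2, 0.2847 without RFIpl 1 and 2 and 0.148 without RFIpl 1, 2, 7 and 8. PNPLA2 was -0.0283 within dim arrays, -0.0038 within scan day 1, -0.0135 with the 75th percentile over probes well above background on all arrays, -0.0102 with array weights and -0.0071 with the covariates. LPL was -0.1467 within dim arrays and -0.0557 within scan day 2, DGAT2 was 0.1128 within bright arrays, and FASN, ADIPOQ and SLC2A4 were -0.0554, -0.0435 and -0.1875 within scan day 1. Leaving out 1 array moved ACACA from -0.4339 to 0.1609, DGAT2 from -0.2363 to 0.0148 and PCK1 from -0.2736 to 0.1544, with turned signs from 0.0067, 0.0084 and 0.0132 upward. Of 95 called named genes, 92 kept their direction with scan day as a block, 93 with slide as a block and all that could be tested (72 to 95) in the other settings run; 18 were still called with no block, 24 with scan day, 10 with slide, 46 with normexp, 60 without RFIpl 1 and 2, 67 without RFIpl 7 and 8, and 8 without all 4. Kept directions are favoured here, since the genes were picked from the main fit of the same arrays. Probes dim on part of a group, such as CLDN4 and MCM3, rest on signal close to background.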
